A study of Mus with 10 samples.

Results

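Cellular senescence, a lasting exit from the cell cycle, is marked by genes that hold cyclin-dependent kinases (CDKs) in check and by loss of the nuclear lamina protein lamin B1. The 9 genes described here are the INK4 inhibitors Cdkn2a, Cdkn2b, Cdkn2c and Cdkn2d, the CIP/KIP inhibitors Cdkn1b and Cdkn1c, the lamin gene Lmnb1, the lysosomal beta-galactosidase gene Glb1 and the Polycomb gene Bmi1. They were chosen by name, and 8 of the 9 were measured by a probe set annotated to that gene alone, of 22180 genes in all. Each of the 8 had 1 such probe set. Glb1, whose product gives the senescence-associated beta-galactosidase stain, shared its probe set with Tmppe, so no value is given for it.

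INK4 proteins bind CDK4 and CDK6 and keep them from cyclin D, so that the retinoblastoma protein stays active and holds back E2F target genes. CIP/KIP proteins bind cyclin-CDK complexes, above all those of CDK2. Cdkn2a is the classical marker of senescent cells, Bmi1 encodes a Polycomb repressor of the Cdkn2a locus, and Lmnb1 RNA is lost in many senescent cells, skin cells among them.

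Skin of female BALB/c mice (BALBc in the labels), aged 7 to 8 weeks, was profiled on 10 Affymetrix gene arrays. PUVA 7D skin (4 arrays) and PUVA 3D skin (4 arrays) had received topical psoralen, a light-activated DNA crosslinker, with UVA light at 0.25 J/cm2, given 2 times a week for 2 weeks, and were labelled with gaps of 7 and 3 days. Control skin (2 arrays) was labelled as control, and whether it received psoralen, UVA or a vehicle is not given in the labels. The study applied imiquimod (IMQ), which induces a psoriasis-like dermatitis, after the gap, but for none of the groups do the labels state if IMQ was on the skin used for the arrays. For that reason the gap is not taken as the interval between PUVA and tissue collection.

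Values are log2 signals, and array medians lay between 5.83 and 5.86. The epidermal keratin genes Krt14 and Krt10 had log2 signals of 11.76 to 12.18 and of 12.64 to 12.81 over the 10 arrays, as epidermis in the labelled tissue gives. Control replicate 2 stood apart from control replicate 1. Its mean over 9 proliferation markers was 8.20, against 7.53 in control replicate 1, and its mean over 7 markers of the growing hair follicle was 9.18, against 6.66. Precision is limited by how few arrays there are, with 2 in the control group. Whether arrays of a group came from separate animals is not stated, so the spread behind each p-value is that between samples and may be technical. Since arrays measure whole skin, fewer cells of a type and less RNA per cell cannot be told apart.

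No member passed an adjusted p of 0.05 (limma, Benjamini-Hochberg over 22180 genes) in any of the 3 comparisons. In PUVA 7D against control skin 0 of the 8 passed, where 0.0% of all genes did, and the smallest adjusted p among the members was 0.809. In PUVA 3D against control skin 0 of the 8 passed, where 0.00451% of all genes did, with a smallest adjusted p of 0.306. Between PUVA 7D and PUVA 3D skin 0 of the 8 passed, where 0.00902% of all genes did, with a smallest adjusted p of 0.373. Members with an unadjusted p under 0.05 were Cdkn1c and Bmi1 in PUVA 7D against control skin, 2 of 8 where 5.89% of all genes had one. In PUVA 3D against control skin they were Cdkn1c, Cdkn2c and Lmnb1, 3 of 8 where 9.74% of all genes had one, and between the PUVA groups Cdkn2c was the 1 member, where 9.77% had one. The members did not lie on 1 side: 5 were above 0 and 3 below in PUVA 7D against control skin, with a median log2 change of 0.077, and 3 were above and 5 below in PUVA 3D against control skin, with a median of -0.096. Between PUVA 7D and PUVA 3D skin 5 were above 0 and 3 below, with a median of 0.098. Without control replicate 1 the medians against control were 0.031 in PUVA 7D and -0.141 in PUVA 3D skin, and without control replicate 2 they were 0.069 and -0.061. Over all genes 55.0%, 50.6% and 53.2% were above 0 in these comparisons, with medians of 0.015, 0.002 and 0.010.

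**Figure D1:**
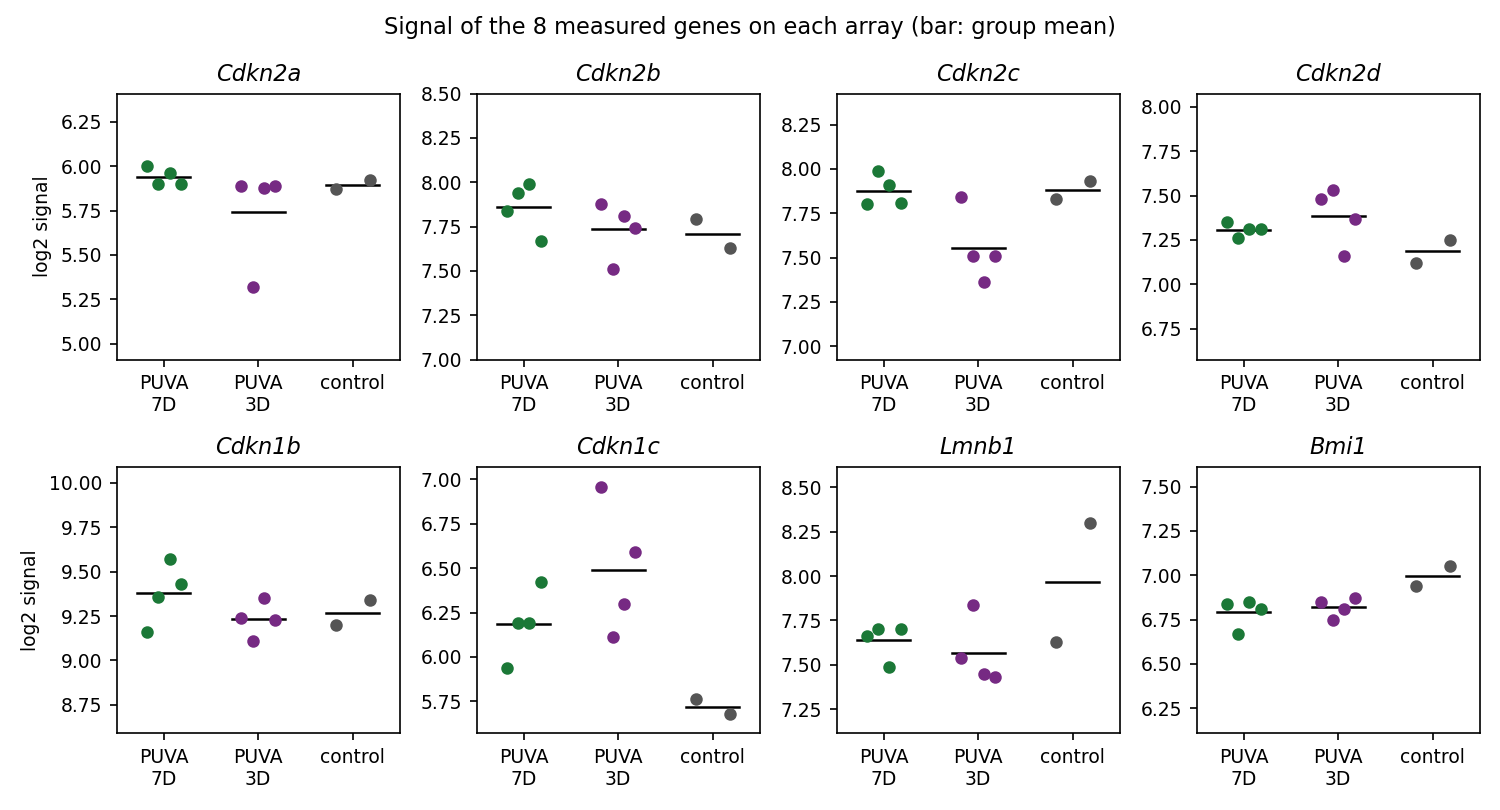
Log2 signal (vertical axis, same span of log2 units in each panel) of the 8 measured genes on every array, with PUVA 7D, PUVA 3D and control skin from left to right. Points are arrays and bars are group means. All PUVA arrays of Cdkn1c lie above both controls and all PUVA arrays of Bmi1 below both, while in Lmnb1 the controls lie apart, at 7.63 and 8.30.

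Among the INK4 genes, Cdkn2a encodes the CDK4 and CDK6 inhibitor p16INK4a and, in another reading frame, p19ARF, which stabilises p53. The annotation names the gene and not the transcript, so the signal may hold either or both. Its log2 values were 6.00, 5.90, 5.96 and 5.90 on the PUVA 7D arrays, 5.89, 5.32, 5.88 and 5.89 on the PUVA 3D arrays, and 5.87 and 5.92 on the control arrays. PUVA 3D replicate 2 was the low array, and all others lay between 5.87 and 6.00. The PUVA 7D group overlapped with control, with a log2 change of 0.05 ± 0.15 (SE) and a 95% interval of -0.28 to 0.37. The upper bound of that interval was a signal fold of 1.29. The fit pools the spread of all groups, so the interval also holds that of PUVA 3D skin. The SD of Cdkn2a was 0.05 in PUVA 7D, 0.28 in PUVA 3D and 0.03 in control skin. Apart from PUVA 3D replicate 2, the Cdkn2a signals lay near the array medians of 5.83 to 5.86. No detection call was made, and how far the bound holds for Cdkn2a RNA was not tested. In PUVA 3D skin the log2 change was -0.15 ± 0.15, with an upper bound of 1.13-fold. Between the PUVA groups the arrays did not overlap (higher in PUVA 7D, as in 2.95% of all genes), but the nearest values were 5.90 and 5.89, and the log2 difference of 0.20 ± 0.12 had an adjusted p of 0.629. Without PUVA 3D replicate 2 that difference was 0.06, and the change of PUVA 3D against control skin was -0.01.

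Cdkn2b encodes p15INK4b, the INK4 inhibitor induced by TGF-beta in epithelial cells, and neighbours Cdkn2a in the RefSeq annotation, where the long non-coding RNA gene Gm12610 spans it. Whether the probe set also picks up that RNA was not tested. It had 7.84, 7.94, 7.99 and 7.67 in PUVA 7D skin, 7.88, 7.51, 7.81 and 7.74 in PUVA 3D skin, and 7.79 and 7.63 in control skin. The 3 groups overlapped. Its log2 change was 0.15 ± 0.12 in PUVA 7D and 0.03 ± 0.12 in PUVA 3D against control skin, with 95% intervals of -0.12 to 0.42 and -0.24 to 0.30. Without control replicate 2 these changes were 0.07 and -0.05, and without control replicate 1 they were 0.23 and 0.11. PUVA 3D replicate 2 was the lowest array for both Cdkn2a and Cdkn2b. It was also the lowest for Cdkn1b, at 9.11 with the next array at 9.16. For Cdkn2d it was the highest, at 7.53 with the next at 7.48. Its mean was the highest for macrophage markers, at 10.44 with the next at 9.92. For basal keratinocyte markers its mean was the lowest, at 10.67 with the next at 10.76. Whether these values share a cause was not tested.

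Cdkn2c encodes p18INK4c. It read 7.80, 7.99, 7.91 and 7.81 in PUVA 7D skin, 7.84, 7.51, 7.36 and 7.51 in PUVA 3D skin, and 7.83 and 7.93 in control skin. Of the PUVA 3D arrays 3 lay below every other array and replicate 1 lay among the PUVA 7D and control arrays. The log2 change of PUVA 3D against control skin was -0.33 ± 0.12 (unadjusted p = 0.0228, adjusted p = 0.453), and the log2 difference of PUVA 7D from PUVA 3D skin was 0.32 ± 0.10, with an unadjusted p of 0.00857 and an adjusted p of 0.373. These 2 comparisons share the PUVA 3D arrays. PUVA 7D skin averaged 7.88 ± 0.09 (SD, n = 4) and control skin 7.88 ± 0.07 (SD, n = 2), with a 95% interval of the change from -0.28 to 0.27. Without PUVA 3D replicate 1 the change against control was -0.42 and the difference between the PUVA groups 0.42, with adjusted p of 0.223 and 0.113.

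Cdkn2d, which encodes p19INK4d, ran the other way in PUVA 3D skin. Its log2 values were 7.35, 7.26, 7.31 and 7.31 in PUVA 7D skin, 7.48, 7.53, 7.16 and 7.37 in PUVA 3D skin, and 7.12 and 7.25 in control skin. All PUVA 7D arrays lay above both controls, the nearest at 7.26 and 7.25, as did 8.56% of all genes, while PUVA 3D replicate 3 lay between the controls. The log2 changes against control were 0.13 ± 0.10 in PUVA 7D skin (adjusted p = 0.95) and 0.20 ± 0.10 in PUVA 3D skin (adjusted p = 0.573), with 0.06 in PUVA 7D skin without control replicate 1. The PUVA groups differed by -0.08 ± 0.08, with a 95% interval of -0.26 to 0.11.

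Of the CIP/KIP genes, Cdkn1b encodes p27, which binds CDK2 with cyclin E or A and is largely controlled through protein breakdown. It had 9.16, 9.36, 9.57 and 9.43 in PUVA 7D skin, 9.24, 9.11, 9.35 and 9.23 in PUVA 3D skin, and 9.20 and 9.34 in control skin. The 3 groups overlapped, and the log2 changes against control were 0.11 ± 0.12 in PUVA 7D and -0.04 ± 0.12 in PUVA 3D skin. The 95% intervals of -0.15 to 0.36 and -0.30 to 0.22 have upper bounds of 1.29-fold and 1.16-fold.

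Cdkn1c, an imprinted gene that encodes p57, a CDK inhibitor of tissues that leave the cell cycle during development, differed most from control among the 8. It had log2 values of 5.94, 6.19, 6.19 and 6.42 in PUVA 7D skin, 6.96, 6.11, 6.30 and 6.59 in PUVA 3D skin, and 5.76 and 5.68 in control skin. Every PUVA array lay above both controls, and the PUVA groups overlapped with each other. The control values lay below the array medians of 5.83 to 5.86, and no detection call was made. No overlap with control in the higher direction was seen in 8.56% of all genes for PUVA 7D and in 9.52% for PUVA 3D skin. The log2 change against control was 0.47 ± 0.20 in PUVA 7D skin, a fold of 1.38 (95% interval 1.01 to 1.89, unadjusted p = 0.0448, adjusted p = 0.833). In PUVA 3D skin it was 0.77 ± 0.20, a fold of 1.71 (95% interval 1.25 to 2.34, unadjusted p = 0.00331, adjusted p = 0.306), and 116 of the 22180 genes had a larger log2 change upward. PUVA 7D skin differed from PUVA 3D skin by -0.31 ± 0.17, with an adjusted p of 0.575. Without PUVA 3D replicate 1, the highest array, the PUVA 3D change was 0.62 and the difference between the PUVA groups -0.15. Over all arrays left out in turn, the change against control ran from 0.39 to 0.55 in PUVA 7D and from 0.62 to 0.90 in PUVA 3D skin.

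Markers of endothelial cells, fibroblasts and macrophages are given beside Cdkn1c, since all their measured genes lay above 0 in PUVA 3D against control skin. The mean of 6 endothelial markers was 8.40 to 8.48 in PUVA 7D, 8.42 to 8.57 in PUVA 3D and 8.19 and 8.29 in control skin, and all 6 lay above 0 in both comparisons with control. The 6 fibroblast markers had means of 10.91 to 11.38 in PUVA 7D, 11.36 to 11.99 in PUVA 3D and 10.87 and 11.50 in control skin. The 7 macrophage markers had means of 9.36 to 9.83 in PUVA 7D, 9.54 to 10.44 in PUVA 3D and 9.30 and 9.44 in control skin. By group, macrophage marker means were 9.58 in PUVA 7D, 9.95 in PUVA 3D and 9.37 in control skin. Those of Cdkn1c ranked the same way, at 6.18, 6.49 and 5.72. The single array highest for fibroblast and macrophage markers was PUVA 3D replicate 2, which had the lowest Cdkn1c value of its group. The part of these cells in the Cdkn1c values was not tested.

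**Figure D2:**
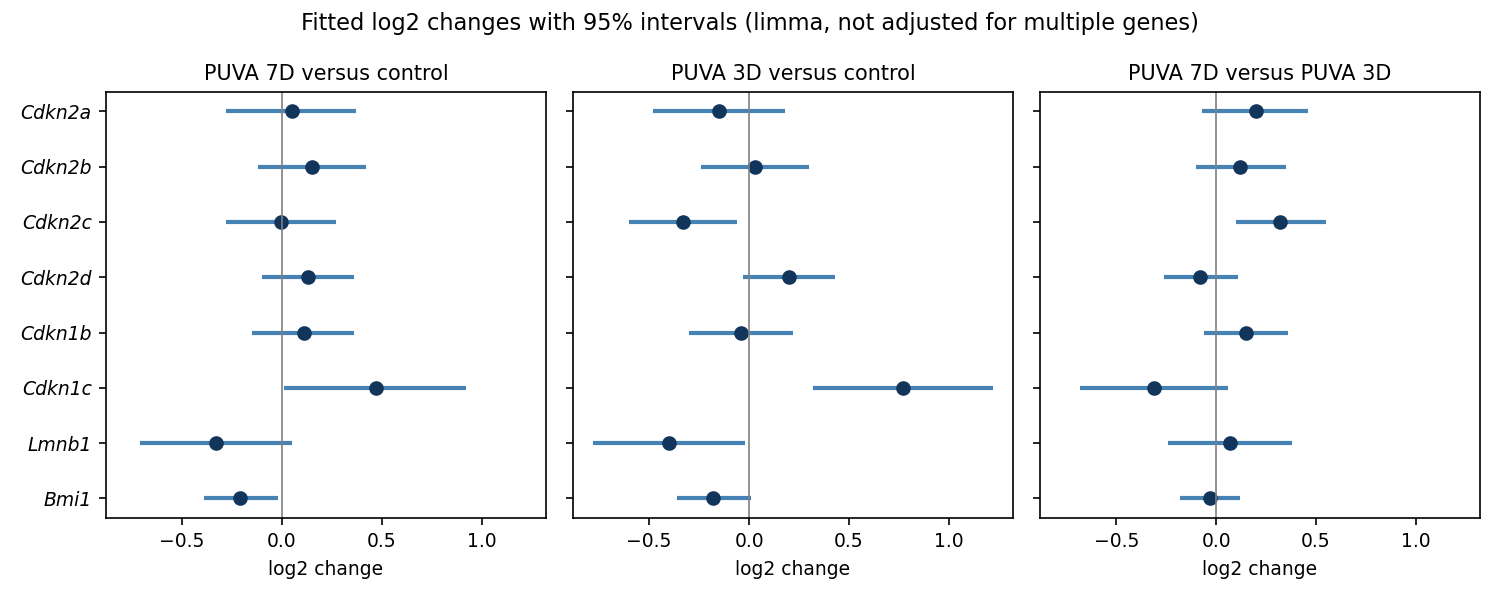
Log2 change (horizontal axis) of each gene in PUVA 7D against control, PUVA 3D against control and PUVA 7D against PUVA 3D skin. Points are limma estimates and lines are 95% intervals for each gene alone, without adjustment for the number of genes. The intervals of Cdkn1c lie above 0 in both comparisons with control, and those of Cdkn2a, Cdkn2b, Cdkn2d and Cdkn1b cross 0 in all 3 comparisons. Against control, those of Cdkn2c and Lmnb1 in PUVA 3D and of Bmi1 in PUVA 7D skin lie below 0. Between the PUVA groups that of Cdkn2c lies above 0.

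Lmnb1 encodes lamin B1, a filament protein of the inner nuclear envelope. Its log2 values were 7.66, 7.70, 7.49 and 7.70 in PUVA 7D skin, 7.54, 7.84, 7.45 and 7.43 in PUVA 3D skin, and 7.63 and 8.30 in control skin. Control replicate 2 was the high array, and control replicate 1 lay inside both PUVA groups. The log2 change was -0.33 ± 0.17 in PUVA 7D skin (unadjusted p = 0.082, adjusted p = 0.887) and -0.40 ± 0.17 in PUVA 3D skin (unadjusted p = 0.0402, adjusted p = 0.499). Both rest on control replicate 2. Without it the changes were 0.0031 in PUVA 7D and -0.07 in PUVA 3D skin. Without control replicate 1 they were -0.67 and -0.74. The gap of 0.67 between the 2 controls was larger than that of 97.6% of all genes. The fit takes 1 spread over all groups, and whether the spread of Lmnb1 differs between groups was not tested. PUVA 7D and PUVA 3D skin differed by 0.07 ± 0.14, with a 95% interval of -0.24 to 0.38.

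Markers of proliferating cells and of the growing hair follicle were highest on the same control array as Lmnb1. The mean of the 9 proliferation markers was 7.20 to 7.45 in PUVA 7D skin, 7.41 to 7.52 in PUVA 3D skin and 7.53 and 8.20 in control skin, with control replicate 2 again the high array. All 9 lay below 0 in both comparisons with control, with median log2 changes of -0.543 in PUVA 7D and -0.438 in PUVA 3D skin, of -0.234 and -0.149 without control replicate 2, and of -0.855 and -0.708 without control replicate 1. Mki67, the proliferation antigen Ki-67, had -0.39 ± 0.12 in PUVA 7D and -0.44 ± 0.12 in PUVA 3D skin, with adjusted p of 0.763 and 0.319, and depended on the control array. Without control replicate 1 it had -0.64 and -0.69, and without control replicate 2 it had -0.13 and -0.19. Either fit leaves 1 control array, so its p-values hold no spread between controls and are not given. The 7 hair follicle markers had means of 5.16 to 5.29 in PUVA 7D skin, 5.02 to 5.64 in PUVA 3D skin and 6.66 and 9.18 in control skin. Both controls thus lay above every PUVA array. Their median log2 changes were -3.660 in PUVA 7D and -3.644 in PUVA 3D skin. Without control replicate 2 these were -1.893 and -1.682, and without control replicate 1 they were -5.346 and -5.385. The part of these cells in the Lmnb1 values was not tested.

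**Figure D3:**
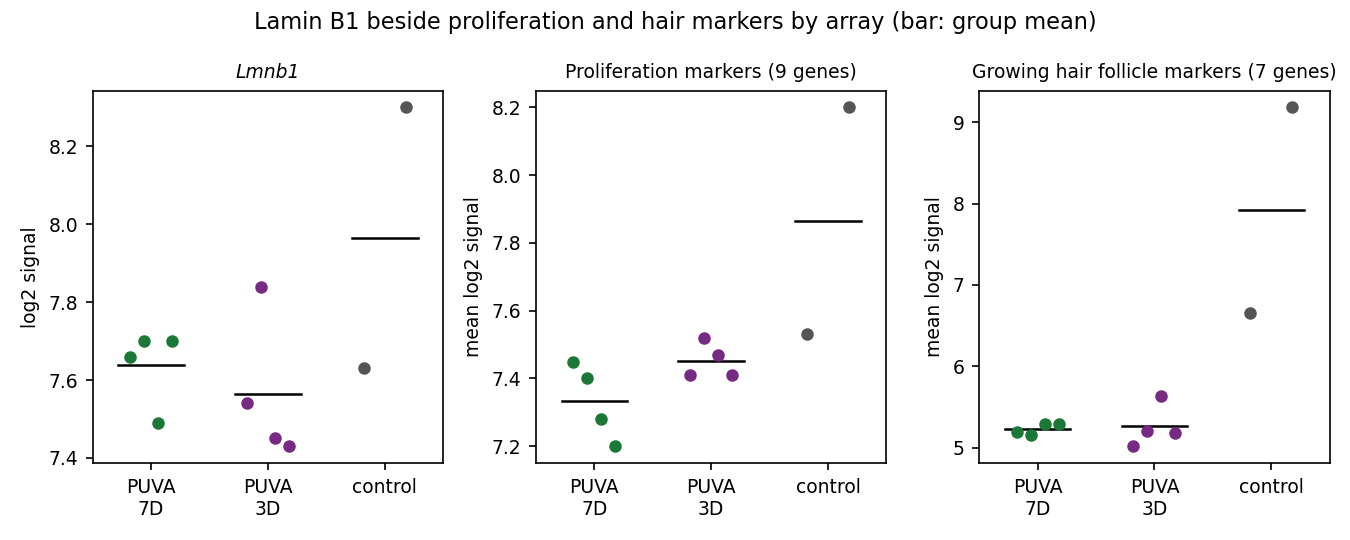
Log2 signal of Lmnb1 (left), mean log2 signal of 9 proliferation markers (middle) and of 7 markers of the growing hair follicle (right) on each array of PUVA 7D, PUVA 3D and control skin. Points are arrays, bars are group means, and the vertical scales differ. The highest control point is replicate 2 in all 3 panels, at 8.30, 8.20 and 9.18.

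Bmi1 (also Pcgf4) encodes a subunit of Polycomb repressive complex 1. It varied little, with a within-group SD of 0.07 on the log2 scale, smaller than in all but 10.0% of genes. Its values were 6.84, 6.67, 6.85 and 6.81 in PUVA 7D skin, 6.85, 6.75, 6.81 and 6.87 in PUVA 3D skin, and 6.94 and 7.05 in control skin. Every PUVA array lay below both controls, as in 5.85% of all genes for PUVA 7D and 7.89% for PUVA 3D skin. The log2 changes were -0.21 ± 0.08 in PUVA 7D skin (a fold of 0.866, unadjusted p = 0.0301, adjusted p = 0.809) and -0.18 ± 0.08 in PUVA 3D skin (a fold of 0.884, unadjusted p = 0.0558, adjusted p = 0.525). Without control replicate 2 they were -0.15 and -0.12. The PUVA groups differed by -0.03 ± 0.07.

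Genes whose log2 values ran most like those of a member over the 10 arrays were looked up among 17427 other named genes, with Pearson's r as a description. For Cdkn2d they were Pml, Oas1b and Relt, with r of 0.98, 0.98 and 0.97, and 0.97, 0.94 and 0.95 without the 2 arrays of Cdkn2d farthest from its median. Pml and Oas1b are interferon-inducible genes. For Cdkn1c they were Omd, a small proteoglycan gene, Hcst and Zfp521, with r of 0.95, 0.93 and 0.91, and 0.92, 0.85 and 0.82 without PUVA 3D replicate 1 and control replicate 2. For Lmnb1 they were Clic6, Rtkn2 and the DNA repair gene Brca1, with 0.96, 0.94 and 0.93, and 0.85, 0.77 and 0.80 without PUVA 3D replicate 4 and control replicate 2. Cdkn2b had Rab11fip3, Ccm2l and Slc19a2 at 0.97, 0.96 and 0.94, and Cdkn2c had Plcxd2, Fzd10 and Fads2b at 0.95 each. Without the 2 farthest arrays of the member these were 0.92, 0.90 and 0.94, and 0.90, 0.90 and 0.95. Cdkn1b had Fam83h, Phf1 and Kdf1 at 0.93 each, and Bmi1 had Cgrrf1, Haus1 and Mettl18 at 0.95, 0.92 and 0.91. With the same omission these were 0.85, 0.87 and 0.80, and 0.84, 0.80 and 0.73. For Cdkn2a the genes were Elavl3, Cyp4f14 and Lmod2, at 0.94, 0.92 and 0.92. Without PUVA 3D replicate 2 and PUVA 7D replicate 1, left out together, they had r of 0.66, 0.24 and 0.61. All these genes were picked for the highest r among 17427 over 10 arrays, so a high r comes with the choice.

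The other CIP/KIP inhibitor, Cdkn1a, a p53 target that encodes p21, had log2 values of 10.93, 10.86, 10.99 and 10.80 in PUVA 7D skin, 10.98, 10.62, 11.03 and 10.84 in PUVA 3D skin, and 10.98 and 10.62 in control skin. The groups overlapped, with log2 changes against control of 0.10 ± 0.13 and 0.07 ± 0.13, which turned to -0.08 and -0.11 without control replicate 2 and were 0.27 and 0.24 without control replicate 1.

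None of the genes in 7 lists around these inhibitors passed the adjusted threshold in any comparison with all arrays in the fit. The list of kinases, cyclins, the retinoblastoma family and E2F genes lay mostly below 0 against control. In PUVA 7D skin 18 of 20 measured genes did, with a median log2 change of -0.244. In PUVA 3D skin 14 of 20 did, with a median of -0.177. The list shares Cdk1 with the proliferation markers. Without control replicate 2 the medians were -0.073 and 0.033, the second with the direction turned, and without control replicate 1 they were -0.572 and -0.434. Cyclin D1 (Ccnd1), the partner of CDK4, had 8.67, 8.78, 8.74 and 8.69 in PUVA 7D skin, 8.61, 8.89, 8.48 and 8.75 in PUVA 3D skin, and 8.91 and 9.34 in control skin. All its PUVA arrays lay below both controls, as in 5.85% of all genes for PUVA 7D and 7.89% for PUVA 3D skin. Its log2 changes were -0.41 ± 0.13 and -0.45 ± 0.13, with adjusted p of 0.763 and 0.362. Without control replicate 2 the changes of Ccnd1 were -0.19 and -0.23, and without control replicate 1 that in PUVA 7D skin was -0.63. Cyclin A2 (Ccna2) had -0.54 ± 0.17 and -0.48 ± 0.17, and depended on the control array. Without control replicate 1 it had -0.89 and -0.83, and without control replicate 2 it had -0.19 and -0.13. Cdk4 had -0.35 ± 0.15 and -0.24 ± 0.15, and -0.10 and 0.01 without control replicate 2. Ccne1, Cdk6 and Rb1 had changes of -0.11, -0.13 and 0.0037 in PUVA 7D skin, and of 0.08, 0.01 and -0.02 in PUVA 3D skin, where quantile normalization turned Cdk6 to -0.01, as it turned Rb1 to -0.01 in PUVA 7D skin.

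Polycomb genes other than Bmi1 had medians of 0.020 in PUVA 7D and -0.011 in PUVA 3D against control skin, with 8 and 12 of 19 below 0. Without control replicate 1 the medians were -0.018 and -0.051, the first with the direction turned, and without control replicate 2 they were 0.033 and -0.021. Ezh2, the methyltransferase of Polycomb repressive complex 2, had -0.17 ± 0.09 and -0.25 ± 0.09, with -0.01 and -0.09 without control replicate 2 and -0.33 and -0.41 without control replicate 1. Pcgf5, a relative of Bmi1, differed by 0.23 ± 0.08 between PUVA 7D and PUVA 3D skin, with an adjusted p of 0.428. Its PUVA 7D arrays all lay above its PUVA 3D arrays, as in 2.95% of all genes. The 16 known regulators of the Cdkn2a and Cdkn2b locus had medians of 0.036 in PUVA 7D and 0.040 in PUVA 3D against control skin. Among them, the repressor Tbx2 differed by -0.22 ± 0.07 between PUVA 7D and PUVA 3D skin (adjusted p = 0.388). Tgfb1 had 0.55 ± 0.29 in PUVA 3D against control skin (adjusted p = 0.592), the highest of that list, and 0.34 without PUVA 3D replicate 2. Skp2, which marks p27 for breakdown, had -0.34 ± 0.18 in PUVA 7D and -0.28 ± 0.18 in PUVA 3D skin, with the direction turned in both without control replicate 2, at 0.01 and 0.07. Without control replicate 1 Skp2 had -0.70 and -0.63. Akt1, a kinase that acts on p27, differed by -0.20 ± 0.08 between PUVA 7D and PUVA 3D skin (adjusted p = 0.472). The list of 10 measured genes that holds Skp2 and Akt1 had medians of -0.076 in PUVA 7D and -0.048 in PUVA 3D against control skin.

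Other lamina genes were set beside Lmnb1. Lmna, for lamins A and C, had log2 changes of 0.22 ± 0.10 in PUVA 7D and 0.13 ± 0.10 in PUVA 3D skin, and Lmnb2, for lamin B2, had 0.13 ± 0.13 and -0.06 ± 0.13. Tmpo, for the lamina-associated polypeptide 2, had -0.22 ± 0.10 and -0.27 ± 0.10, and Lbr, for the lamin B receptor, -0.18 ± 0.10 and -0.20 ± 0.10, none with an adjusted p under 0.05. Without control replicate 2, Tmpo had -0.06 and -0.11, Lbr had -0.03 and -0.05, and Lmna had 0.11 and 0.01. Without control replicate 1, Tmpo had -0.38 and -0.43, Lbr had -0.33 and -0.35, and Lmna had 0.34 and 0.24. Over the 14 measured genes of the nuclear lamina and envelope the medians were 0.020 in PUVA 7D and -0.059 in PUVA 3D skin, with 0.001 in PUVA 7D skin without control replicate 2 and -0.034 in PUVA 3D skin without control replicate 1.

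Lysosomal genes, the group Glb1 belongs to, had a median log2 change of 0.167 in PUVA 3D skin with 17 of 20 measured genes above 0, and of 0.048 with 16 of 20 in PUVA 7D skin. The medians were 0.071 and -0.035 without control replicate 1. In PUVA 3D skin 8 of the 20 lay above both controls on all 4 arrays, where 9.52% of all genes did. Manba, for lysosomal beta-mannosidase, had 7.52, 7.67, 7.55 and 7.72 in PUVA 7D skin, 7.84, 7.75, 7.76 and 7.75 in PUVA 3D skin, and 7.50 and 7.52 in control skin. Its log2 change in PUVA 3D against control skin was 0.27 ± 0.08 (adjusted p = 0.374), and PUVA 7D differed from PUVA 3D skin by -0.16 ± 0.07 (adjusted p = 0.484). Gusb, for beta-glucuronidase, had 0.36 ± 0.16 and -0.30 ± 0.13 in the same comparisons, and Hexa, for a beta-hexosaminidase subunit, had 0.30 ± 0.14 in the first. Without PUVA 3D replicate 2 the values of Gusb were 0.22 and -0.16, and Hexa had 0.12 without control replicate 1 and 0.48 without control replicate 2. Macrophages, which are rich in lysosomes, had the marker means given above, highest in PUVA 3D skin, and their part in these values was not tested.

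Among other genes associated with senescence, Hmgb2, a chromatin protein that is lost in senescent cells, had -0.39 ± 0.14 in PUVA 3D against control skin and differed by 0.28 ± 0.12 between PUVA 7D and PUVA 3D skin, with adjusted p of 0.449 and 0.489. Without control replicate 2 the change of Hmgb2 against control was -0.22. The chemokine gene Ccl2 had 0.80 ± 0.31 in PUVA 3D against control skin (adjusted p = 0.467), and 0.51 without PUVA 3D replicate 2. Plaur, for the urokinase receptor, differed by -0.34 ± 0.12 between PUVA 7D and PUVA 3D skin (adjusted p = 0.431), and the anti-apoptotic gene Bcl2 by 0.20 ± 0.08 (adjusted p = 0.48). The list of 15 measured genes had medians of 0.065 in PUVA 7D and 0.029 in PUVA 3D skin, with 9 above 0 in each. Without control replicate 1 these medians were 0.016 and -0.023, the second with the direction turned, and without control replicate 2 that in PUVA 3D skin was 0.048.

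**Figure D4:**
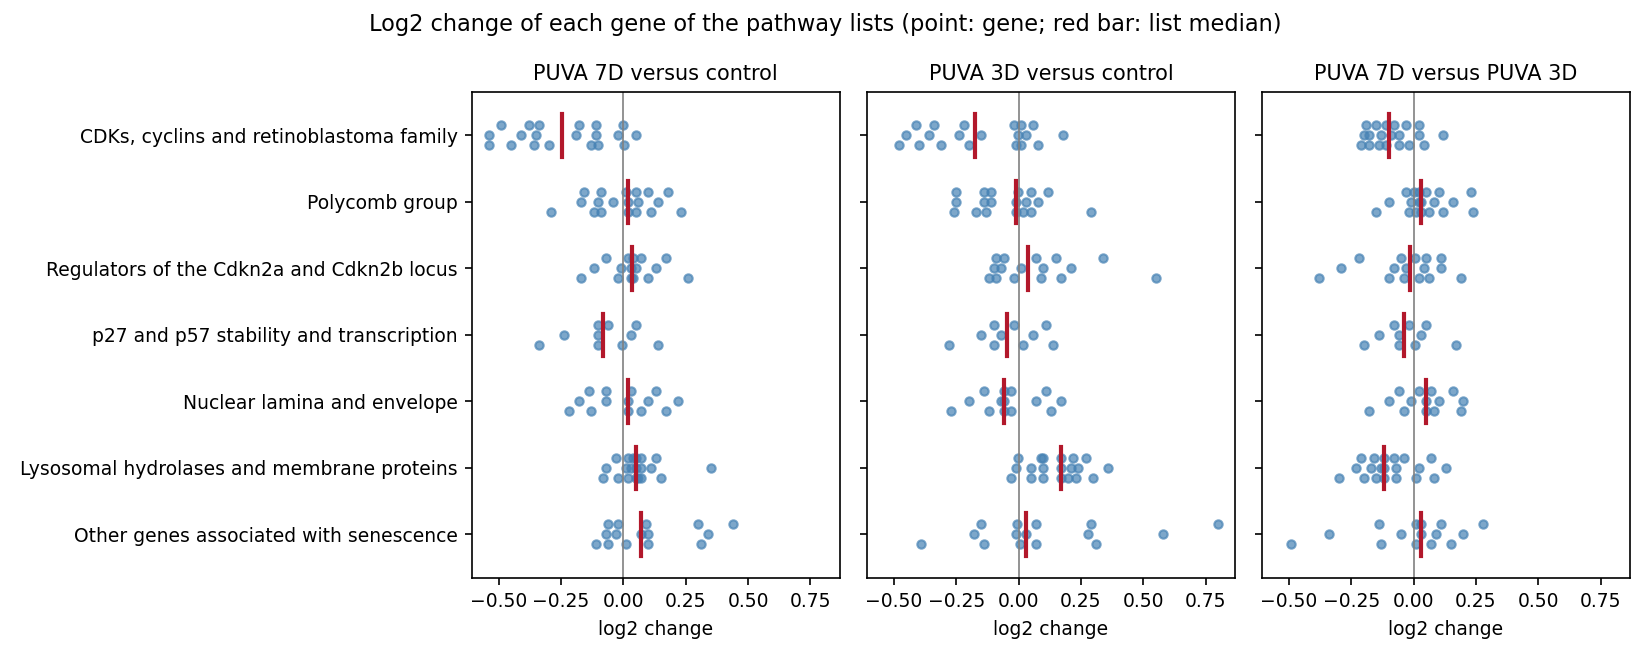
Log2 change (horizontal axis) of each measured gene in the 7 lists around the inhibitors, for PUVA 7D against control, PUVA 3D against control and PUVA 7D against PUVA 3D skin. Points are genes and red bars are list medians. The kinase and cyclin list lies mostly left of 0 against control, with medians of -0.244 and -0.177, and the lysosomal list mostly right of 0 in PUVA 3D skin, with a median of 0.167.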

How the data were processed

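RNA of 10 skin samples was measured on Affymetrix mouse gene arrays, with a miRNeasy kit and the WT PLUS labelling kit per the labels' protocols. The deposited table holds 1 log2 value per probe set and array, 41345 rows, made by the authors. The log base was inferred from the range (1.08 to 13.46), and the normalization is not given in the sources used here. Of the rows, 25335 had a listed gene, 23521 of them with 1 symbol, 1814 with several. The highest-mean probe set per gene gave 22180 genes, and dim signals were kept.

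A single limma fit (version 3.58.1, R 4.3.3) estimated the 3 group means from the 10 arrays by lmFit and eBayes, with two-sided tests and 7 residual and 3.514 prior degrees of freedom. Benjamini-Hochberg adjustment ran over all genes, with a threshold of 0.05. Errors and 95% intervals of log2 changes are from that fit. The script was run on simulated data with equal spread in all groups and shifts larger than any member change. That run checked the estimates and not the power at the changes seen here. With 2 controls the fit pools the spread of all groups.

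Members and gene lists were chosen with earlier results of these data known, so no count of members or list genes is independent support. Of 129 list symbols 114 were measured. All members are named, with up to 3 genes of smallest p per list and comparison and 10 fixed genes, from which the text gives a selection. Medians of lists describe and are not tested. Gene symbols of the array were used, and neighbouring genes were taken from RefSeq GRCm38.p6. Arrays carry no read depth. The fit was repeated without the lowest 30% of genes, and with the mean of all probe sets, quantile normalization, trend and robust eBayes, array weights, only the groups compared, and leaving out each array.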

Additional observations from a re-analysis of the deposited data

Results flagged for a closer look

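Cdkn2a on PUVA 3D replicate 2 had a log2 value of 5.32, far below the other arrays of its group at 5.88 to 5.89. The PUVA 7D arrays of Cdkn2a lay above the control mean and the PUVA 3D arrays below it, with a difference of 0.20 between PUVA 7D and PUVA 3D skin that did not pass in limma (adjusted p = 0.629). Single arrays also stood apart from the rest of their group for Pcgf6 (PUVA 3D replicate 4, 7.00), Skp2 (PUVA 3D replicate 1, 7.32), Lmnb2 (PUVA 7D replicate 1, 6.28), Gusb (PUVA 3D replicate 2, 8.82) and Bcl2 (PUVA 3D replicate 1, 8.49). In 76 groups of 4 arrays checked, chance gives such an array in about 1 of 20.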

How the results depend on the processing

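Of 304 values of the 8 members recomputed under the alternatives, 10 had the opposite sign. No member passed the adjusted threshold in the alternatives that kept both controls. A fit that leaves out a control array keeps 1 control, so its p-values hold no spread between controls. Leaving out each array gave log2 changes in PUVA 3D against control skin of -0.05 to 0.11 for Cdkn2b, -0.11 to 0.03 for Cdkn1b, -0.49 to 0.01 for Cdk4, -0.03 to 0.05 for Cdk6, -0.22 to 0.38 for Ccne1, -0.07 to 0.03 for Rb1, -0.63 to 0.07 for Skp2, -0.15 to 0.03 for Lmnb2 and -0.11 to 0.24 for Cdkn1a. In PUVA 7D against control skin it gave -0.05 to 0.04 for Cdkn2c, -0.67 to 0.0031 for Lmnb1, -0.41 to 0.19 for Ccne1, -0.05 to 0.05 for Rb1, -0.08 to 0.27 for Cdkn1a and -0.70 to 0.01 for Skp2, and between the PUVA groups -0.05 to 0.01 for Bmi1 and -0.05 to 0.08 for Cdkn1a. Quantile normalization gave 5.5e-05 for Cdkn2c and -0.01 for Rb1 in PUVA 7D, and -0.01 for Cdk6 in PUVA 3D against control skin. The cause was not tested. The count of all genes past the threshold ran from 0 to 217 in PUVA 7D (0 as reported), from 1 to 182 in PUVA 3D against control skin (1 as reported) and from 0 to 10 between the PUVA groups (2 as reported) when arrays were left out. The highest counts against control, 217 and 182, came without control replicate 1, and without control replicate 2 they were 1 and 2. Array weights gave 3 in PUVA 3D against control skin and 6 between the PUVA groups, and the filter on the lowest 30% and the fit of only the 2 groups gave 1 each between the PUVA groups. No paired analysis was possible because the labels give the groups no shared replicate numbers.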
